A study of Mus musculus with 14 samples.

Results

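The antigen receptor loci of the mouse are the T cell receptor regions Tcra, Tcrb and Tcrg and the immunoglobulin regions Igh, Igk and Igl. They were chosen by position, as the bins of a single-cell DNA coverage table that overlap these regions in mm10, with 3 flanking bins on each side. This gave 21 of 4880 bins, of which 4 lie over Tcra, 2 over Tcrb, 2 over Tcrg, 6 over Igh, 6 over Igk and 1 over Igl, beside 36 flanking bins.

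Developing T and B cells join V, D and J gene segments of these loci, a process called V(D)J recombination. The RAG1 and RAG2 proteins cut beside the segments, repair proteins join the chosen ones, and the DNA between them is usually lost from the chromosome. A mature B cell therefore carries shortened Igh and light chain loci and a mature T cell shortened T cell receptor loci, whereas myeloid cells and melanoma cells keep the inherited arrangement. The comparison addresses whether such losses can be read in single leukocytes, and whether the DP class carries them.

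Single cells were isolated by flow sorting, and their DNA was amplified by MALBAC, a method that copies the genome of 1 cell in looping cycles. The 648 cells came from 14 samples. Female C57BL/6J mice aged 6 to 8 weeks were injected with fluorescent B16F10 cells, a melanoma line of the same strain, and 9 tumor-bearing samples gave 450 DP cells (9 samples), 46 white blood cells (WBC, 6 samples) and 43 circulating tumor cells (CTC, 5 samples) from blood and lung. Of the 5 control samples, 18 CDP, 24 Duplike and 24 PltLike cells carry labels that the descriptions do not spell out, and DP is not spelled out either. The other controls were 21 WBC of naive mice and 22 cells of the B16F10 culture, each 1 sample. The labels give the naive WBC, CDP, Duplike and PltLike samples as naive females of the same strain and age range, and give no age or sex for the culture. The labels do not say whether a sample is 1 mouse, so the spread between samples may be technical in part, and they give no share of lymphocytes among the WBC.

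Each value below is the deposited coverage of a bin divided by the median over the autosomes of the same cell, called its level. The autosomal medians themselves lay near 1.8, 3.7, 5.6, 7.8 or 9.6. All 67 WBC lay near 1.8 and all CTC and culture cells near 3.7, while the DP cells were spread over 177 near 1.8, 219 near 3.7, 29 near 5.6, 9 near 7.8 and 16 near 9.6. The classes were checked on whole chromosomes against naive WBC. Chromosome 6, which holds Tcrb and Igk, was higher by 0.31 (log2) in DP, by 0.57 in CTC and by 0.56 in culture, against -0.0015 in the WBC of tumor-bearing samples. Chromosome 14, which holds Tcra, had log2 values of -0.23 in DP, -0.02 in WBC, -0.39 in CTC and -0.41 in culture. CDP, Duplike and PltLike, though labelled as naive samples, lay on the side of the culture. They had 0.43, 0.45 and 0.50 on chromosome 6 and -0.28, -0.35 and -0.43 on chromosome 14. On chromosome X they had -0.65, -0.86 and -1.16, beside -1.17 in culture. None of their cells lay near the 1.8 level. The table gives no reads, so the depth is unknown, and the median difference between neighbouring bins within a cell ran from 0.161 to 0.304 on the log2 scale.

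The largest difference at any of the loci was in Tcra bin 2. This bin (mm10, chr14:52958219-53528636) holds 58 V segments and V pseudogenes in the annotation and no D, J or C segment. Its level was 0.00189 to 0.0238 in the 46 WBC of tumor-bearing samples (median 0.00740) and 0.000658 to 0.0105 in the 21 naive WBC (median 0.00215). In the tumor cells it was 0.222 to 0.592 in the 43 CTC (median 0.425) and 0.355 to 0.509 in the 22 culture cells (median 0.428). Every WBC of both kinds lay below every CTC and culture cell, with no overlap. The share of other bins that separate these cells without overlap was not counted. In the fit over all bins given below, 51.8% differed between WBC and CTC.

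The near-absence held in each sample. The median over WBC was 0.00928 in C1L (3 cells), 0.00808 in C1N (10 cells) and 0.00917 in C1R (12 cells). It was 0.0118 in C2N (2 cells), 0.00340 in C2R (13 cells) and 0.00945 in C3R (6 cells). The values thus stood near 0 in blood and lung alike, since C1N, C1R and C2R held WBC of both tissues. The log2 ratio of naive WBC over culture, each taken relative to the flanking bins, was -8.10, while the next lowest of 4289 bins outside the loci was at -1.66.

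The neighbouring bins showed a smaller shortfall when set against the flanks. Relative to the flanks, naive WBC over culture had a ratio of 0.681 in Tcra bin 1 (36 V segments and V pseudogenes), 0.730 in bin 3 (41) and 1.01 in bin 4, which holds the J segments and C regions of Tcra and the D segments of the delta chain. If coverage were even within a bin, 912 kb of the first 3 bins would be missing in naive WBC. Bin 4 had a level of 0.668 to 1.11 in WBC, against 0.612 to 1.06 in CTC. The J and C end of the locus was present in every WBC at a level near that of its flanks.

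**Figure D1:**
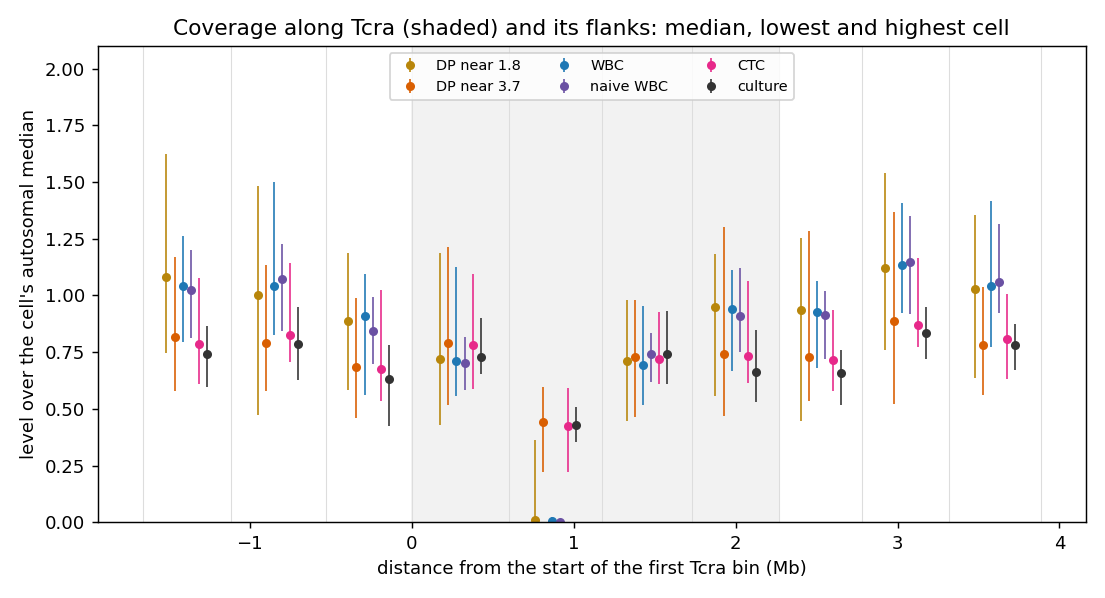
Level of each bin along Tcra (shaded) and its 3 flanking bins on each side, against the distance from the start of the first Tcra bin in Mb. Points are medians over cells and lines run from the lowest to the highest cell. In bin 2, WBC, naive WBC and most DP cells near 1.8 lie close to 0, while DP near 3.7, CTC and culture lie between 0.222 and 0.598.

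At the sample level, the log2 value of Tcra bin 2 (after adding 0.05 to the level) differed in all 3 class comparisons over 5 samples (limma with sample as a block, Benjamini-Hochberg adjusted over 2606 bins). It was -2.30 in DP and -4.10 in WBC, a difference of 1.801 ± 0.268 (SE, adjusted p = 0.00763, higher in DP in 5 of 5 samples). It was -4.10 in WBC and -1.06 in CTC, a difference of -3.04 ± 0.04 (adjusted p = 1.37e-14, lower in WBC in 5 of 5). The pseudocount of 0.05 is larger than the WBC level, so these differences understate the ratio.

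DP minus CTC at the same bin was -1.24 ± 0.26 (SE, limma, adjusted p = 0.0198, lower in DP in 5 of 5 samples). This call was lost without C1N (adjusted p = 0.0537), without C1R (0.0719), without C2R (0.0589) and with blood cells only (-0.53, adjusted p = 0.159). It is the mean over a mixture of coverage levels, which are described next.

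DP cells fell into separate ranges at Tcra bin 2. Of 450 DP cells, 155 lay at or below the highest WBC, 269 at or above the lowest tumor cell, and 26 between. Near 1.8, 155 of 177 lay in the WBC range, 21 between and 1 (in C1L, at 0.361) in the range of tumor cells. Near 3.7, all 219 lay in the range of tumor cells, from 0.224 to 0.598 with a median of 0.443.

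At higher coverage levels the medians were 0.316 near 5.6 (range 0.202 to 0.388), 0.230 near 7.8 (0.127 to 0.263) and 0.388 near 9.6 (0.261 to 0.660). No DP cell above the 1.8 level lay in the WBC range. By tissue, 59 of 273 DP cells of blood and 96 of 177 DP cells of lung lay in the WBC range. The controls had medians of 0.304 in CDP, which all lie near 5.6, 0.311 in Duplike and 0.426 in PltLike, and none of these 66 cells lay in the WBC range.

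Of the 21 DP cells near 1.8 between the ranges, 16 came from P1 and 3 from P4. Those samples held no WBC, so no WBC of the same sample can be set beside them. The highest of these cells was at 0.0947 (C3R), and the highest in P1 was at 0.0365. The sample medians of DP near 1.8 went from 0.00201 in C2R, whose WBC were also the lowest, to 0.0183 in P1.

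Within samples, DP cells near 3.7 averaged 0.427 ± 0.013 at Tcra bin 2 and DP cells near 1.8 averaged 0.0174 ± 0.0133 (SD over 8 samples). The difference of 0.409 ± 0.010 had the same sign in 8 of 8 samples (exact permutation test by sign flips, two-sided, p = 0.00781, the smallest that 8 pairs allow, and adjusted p = 0.0137 over 7 measures). The contrasts of the loci with their flanks (mean log2 level of the bins not crowded at the ceiling, minus the median over the flanks) also differed between these DP cells at Tcra (0.28), Igl (0.15) and Igk (0.09), each higher near 3.7 in 8 of 8 samples with the same exact p. They differed at Igh (0.10) and Tcrb (0.03) in 7 of 8 samples (exact permutation test, adjusted p = 0.0182), and Tcrg (0.06) did not pass (exact p = 0.0703). No share of bins outside the loci that pass the same contrast is given here. Whether these differences are particular to the loci was not tested.

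At the same bin, the difference of DP near 1.8 minus WBC was 0.06 ± 0.05 over 5 samples (log2, SE, limma, adjusted p = 0.736), above 0 in 2 of them. DP near 3.7 minus CTC was -0.03 ± 0.04 (adjusted p = 0.882), above 0 in 2 of 5. Neither difference passed the test, which does not show that the classes are alike.

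**Figure D2:**
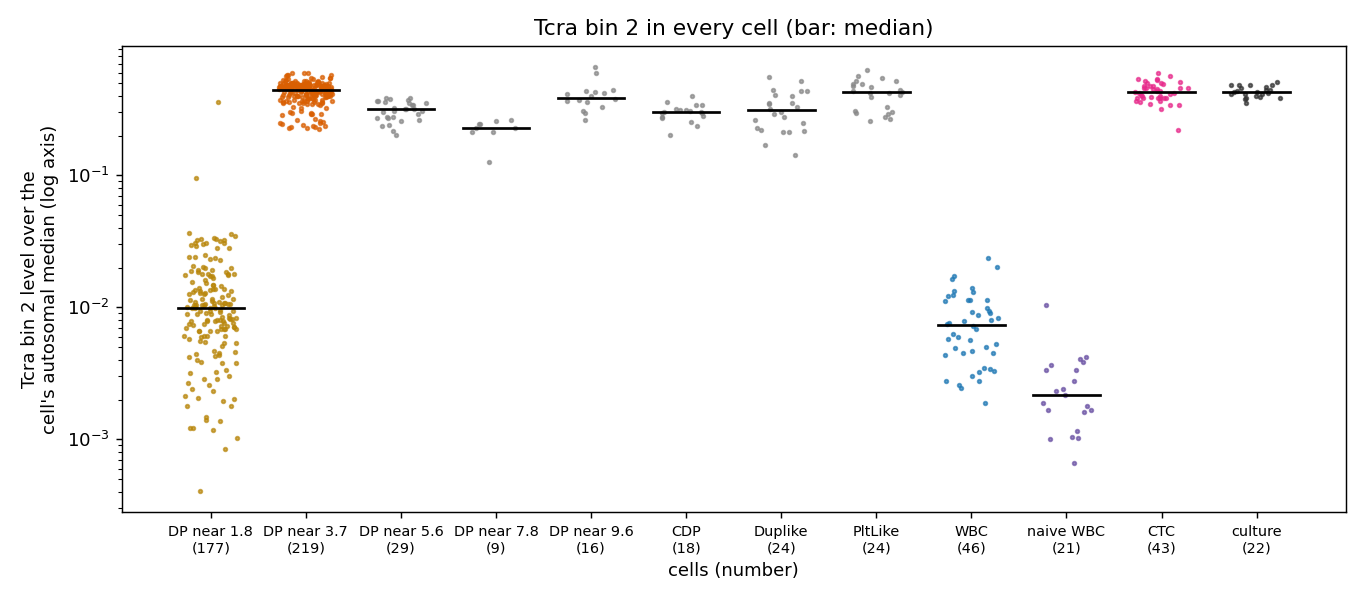
Level of Tcra bin 2 in every cell on a log axis, with the number of cells under each name and a bar at the median. DP near 1.8 lie mostly with WBC, with a median of 0.00986, and the cells of all other DP levels lie at 0.127 or above.

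Low values in single cells were called at the other bins. A bin of a cell was called low when its ratio to the 6 flanking bins was at most 0.6 times the lower of the culture and naive WBC medians of that ratio, near absent at 0.2 times, and high at 1.67 times the higher median. Bins were read where fewer than 10% of cells stood at the ceiling of 10, where the expected ratio was at least 0.1 and where at most 1 of 6 flanks was affected. This left 16 of the 21 locus bins (not Tcra bin 2, Igh bins 3 to 5 or Igk bin 2) and 3898 bins outside as background. These conditions were chosen after the values were seen.

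In Igh bin 2 a subset of WBC was low. This bin (mm10, chr12:113419638-113977619) holds an end of Ighm, which encodes the constant part of IgM, with 20 D segments, 4 J segments and 38 V segments and pseudogenes at the end of the V array that lies nearest to them. It was low in 9 of 46 WBC of tumor-bearing samples (19.6%, exact Clopper-Pearson 95% interval 9.36 to 33.9%). In naive WBC it was low in 4 of 21 (interval 5.45 to 41.9%). Over the bins outside the loci, low calls made up 0.118% of all bins of all cells in WBC and 0.0709% in naive WBC (0.103% in both together). The bin was singled out after its values were seen.

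No CTC (0 of 43, which allows a share of up to 6.98%) and no culture cell (0 of 22, up to 13.6%) was low in Igh bin 2, and neither was any of the 66 CDP, Duplike and PltLike cells. The background of low calls was 0.135% in CTC, 0.049% in culture, 0.00143% in CDP, 0.186% in Duplike and 0.454% in PltLike. The intervals and limits cover counting error over cells only. Among bins outside the loci, 2 of 3898 had at least 13 low WBC of 67, and the highest had 20. In Igh bin 2, 3 WBC were near absent, while 1 of the 3898 bins held any near absent WBC, with 1 cell.

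The low cells were spread over samples. They were 2 of 3 WBC in C1L, 3 of 12 in C1R, 1 of 2 in C2N and 3 of 13 in C2R, and 0 of 10 in C1N and 0 of 6 in C3R. By tissue, 7 of 28 blood WBC and 2 of 18 lung WBC of tumor-bearing samples were low.

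The low values differed in depth between cells. The ratio over the expected one was 0.0121 and 0.0363 in 2 naive WBC and 0.154 in a C2R blood WBC, which are the 3 near absent cells. Near absent calls made up 0% of the background in WBC of tumor-bearing samples and 0.00122% in naive WBC. The other 10 low WBC lay between 0.320 and 0.588. The median ratio was 0.977 over all 67 WBC, 1.07 over CTC and 1.05 over culture.

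In DP cells Igh bin 2 was low in 8 of 450 (1.78%, 0.771 to 3.47%), beside a background of 0.212%. Of these, 7 of 177 lay near 1.8 (3.95%, 1.60 to 7.98%, background 0.285%), 1 of 219 near 3.7 (0.457%, background 0.188%) and 0 of the 54 cells at higher levels (background 0.00442% near 5.6, 0.0114% near 7.8 and 0.213% near 9.6). A DP cell of P4 was near absent at 0.103 (background 0.00159% near 1.8), and 3 of the 7 cells near 1.8 came from P4. Of the bins outside, 35 had at least 7 low DP cells near 1.8, so as many low DP cells were found in other single bins.

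Over the 5 samples with both classes, the mean share of cells with a low Igh bin (readable bins) was 1.34% ± 1.26 in DP and 22.9% ± 27.2 in WBC (SD, n = 5). The difference of -21.6 percentage points was not called (exact permutation test by sign flips, p = 0.25, adjusted p = 1, lower in DP in 3 of 5 samples and higher in 1). The share was 22.9% ± 27.2 in WBC and 0% in CTC, a difference of 22.9 points, above 0 in 3 of 5 samples (the same exact test, p = 0.25, adjusted p = 1). With 5 pairs this test cannot give a p below 0.0625. Over all 6 Igh bins these differences were -20.1 and 23.3 points, and without C1L, where 2 of 3 WBC were low in Igh bin 2, they were -9.72 and 12.4 points.

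**Figure D3:**
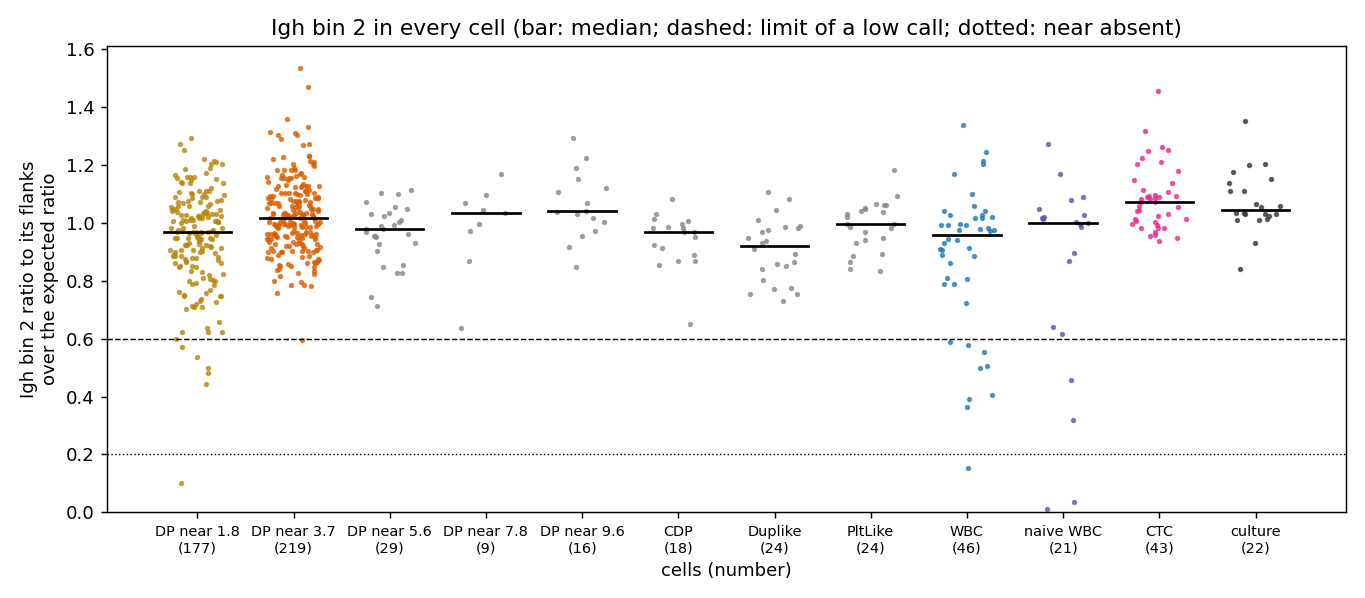
Ratio of Igh bin 2 to its flanking bins over the expected ratio in every cell, with a bar at the median, a dashed line at the limit of a low call (0.6) and a dotted line at that of near absent (0.2). WBC and naive WBC have a tail below 0.6 with 13 of 67 cells, and the CTC and culture cells all lie at 0.843 or above.

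At Igk, the larger light chain locus, 3 of 46 WBC (6.52%, 1.37 to 17.9%) and 3 of 21 naive WBC (14.3%, 3.05 to 36.3%) had a low bin among the 5 that could be read. It was found in 12 of 450 DP cells (2.67%), in 1 of 43 CTC and in 0 of 22 culture cells. Of the DP cells, 10 of 177 near 1.8 had it (5.65%). Among the controls it was found in 1 of 24 PltLike (4.17%), 0 of 24 Duplike and 0 of 18 CDP cells. The background of low calls per bin was 0.118% in WBC, 0.0709% in naive WBC, 0.212% in DP and 0.135% in CTC. It was 0.285% in DP near 1.8 and 0.454% in PltLike, and a cell has 5 bins here.

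The low Igk bins in WBC were bins 3 to 5, in the V array. A C2R lung WBC had levels of 0.0584 in bin 3 and 0.199 in bin 4, and its ratio over the expected one in bin 3 was the lowest of any WBC (0.0818), while that of bin 5 was 2.45. A C1R blood WBC had ratios over the expected one of 0.507 in bin 4 and 0.481 in bin 5. A naive WBC had 0.533 in bin 3, 0.506 in bin 4 and 0.581 in bin 5. Bin 6, with the J segments and the C region, was low in 0 of 67 WBC.

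Most WBC low in Igk were also low in Igh. Of the 6 WBC with a low Igk bin, 5 were also low in Igh, among 13 WBC low in Igh. The remaining Igk-low WBC, of the naive sample, had an Igh bin 2 ratio of 0.616, just above the limit. In DP cells, none of the 8 cells low in Igh was among the 12 low in Igk. The median bin-to-bin noise was 0.188 in the 14 WBC with either call and 0.194 in the other WBC. In DP it was 0.217 in the 20 cells with either call and 0.201 in the others, and in DP of lung 0.242 and 0.205. The part of this noise in the DP calls was not tested.

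High calls were frequent at Igk. They were made in 17 of 46 WBC and 4 of 21 naive WBC, all in bin 5, and in 23 DP cells near 1.8. The count was 0 of 43 in CTC, where the ceiling is a lower level than in WBC. In an Igk flanking bin crowded at the ceiling, the highest level was 2.78 in CTC and 5.86 in WBC. A high call in bin 5 was thus largely out of reach in CTC, and their 0 cannot be set against the WBC counts. The background of high calls was 0.620% in WBC, 0.244% in naive WBC, 0.567% in DP near 1.8 and 0.0937% in CTC. Bin 5 stood at the ceiling in 8.18% of all cells, and its values are less certain than those of bins 3 and 4.

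**Figure D4:**
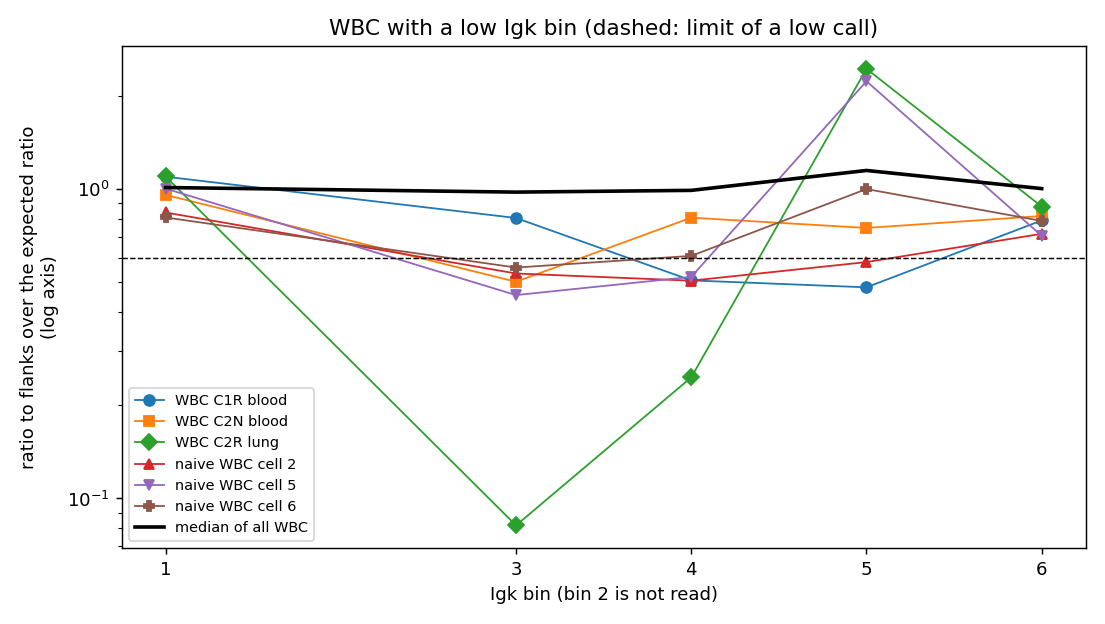
Ratio to the flanking bins over the expected ratio (log axis) in Igk bins 1 and 3 to 6 for the 6 WBC with a low bin, with the median over all WBC as a black line and the limit of a low call dashed. The C2R lung cell falls to 0.0818 in bin 3 and lies at 2.45 in bin 5.

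Tcra bin 2 was not read for low calls, because its expected ratio, set by naive WBC, was below 0.1. In Tcra bins 1, 3 and 4 no cell of any class was low, which allows up to 4.48% of the 67 WBC with a loss beyond the expected ratio. In bins 1 and 3 that ratio was set by naive WBC, at 0.681 and 0.730 of culture. A loss shared by the WBC would not be called there, so these counts do not limit it. In Tcrb, where 32 of its V segments and pseudogenes and all D, J and C segments share 1 bin, 0 of 67 WBC and 1 of 450 DP cells were low. In Tcrg, 1 of 67 WBC (a naive one) and 2 of 450 DP cells (0.444%) were low. The background per bin was 0.212% in DP and 0.103% in all WBC, and a cell has 2 bins at each of these loci, so the DP shares were near the background. Igl, the small light chain locus, had 0 low calls in every class. Tcrg and Igl are each shorter than 1 bin, and a loss much shorter than a bin would not pass the limit of a low call.

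The other Igh and Igk bins could not be read in single cells. Igh bins 3, 4 and 5, in the V array, stood at the ceiling in 81.2%, 49.4% and 59.9% of cells, and Igk bin 2 in 55.6%. In cells near 1.8 the ceiling is the highest level a bin can show. The mean level of Igh bins 3 to 5 ran from 1.11 to 5.82 in DP near 1.8 and from 0.951 to 5.81 in all WBC. It moved with the median of 128 bins outside the loci that stand at the ceiling in at least 50% of cells, with a Pearson r of 0.775 over the 177 DP cells near 1.8 and of 0.849 over the 67 WBC. These are descriptions over cells that share libraries, and the part of this cell-wide variation in the Igh values was not tested.

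**Figure D5:**
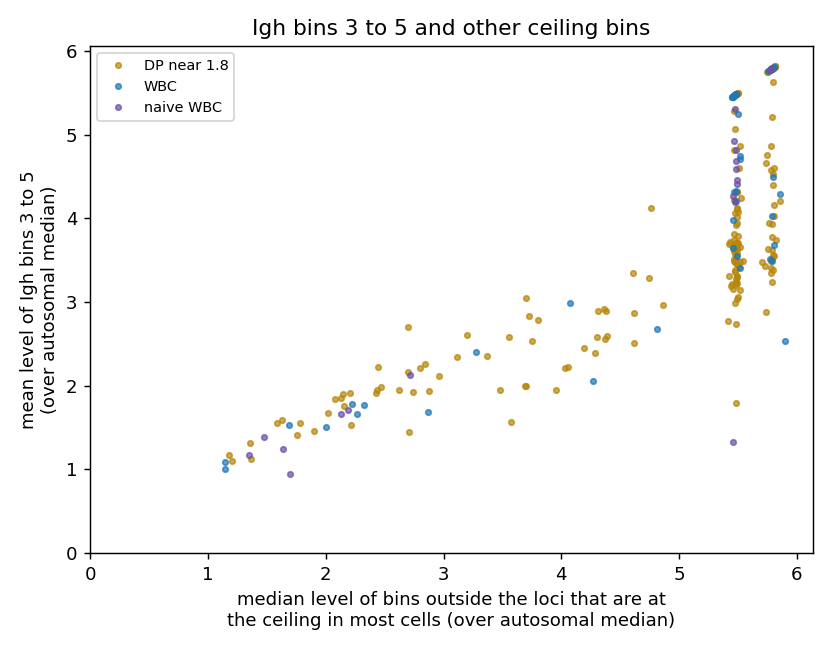
Mean level of Igh bins 3 to 5 against the median level of 128 bins outside the loci that stand at the ceiling in most cells, 1 point per cell, for DP near 1.8, WBC and naive WBC. Most cells low in one measure are low in the other, apart from single cells such as a naive WBC with an outside level above 5.

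The contrast of a whole locus with its flanks was compared over the same 5 samples (mean log2 level of the locus bins minus the median over the flanking bins). At Tcra it was -0.69 ± 0.29 in DP and -1.31 ± 0.02 in WBC (SD, n = 5), a difference of 0.62 (5 of 5 samples, exact permutation test, p = 0.0625, adjusted p = 0.113 over 18 tests). It was -1.31 ± 0.02 in WBC and -0.27 ± 0.03 in CTC, a difference of -1.04 (5 of 5, same exact test, p = 0.0625, adjusted p = 0.113). DP minus CTC was -0.42 (5 of 5, with the same exact p). No contrast at any locus could pass 5% with 5 pairs.

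At Igh the direction depended on the bins. Over all 6 bins, WBC minus CTC was 0.28, with 1.00 ± 0.10 in WBC and 0.72 ± 0.06 in CTC. Over the 3 readable bins it was -0.16, with 0.16 ± 0.06 in WBC and 0.32 ± 0.07 in CTC, lower in WBC in 5 of 5 samples. DP minus WBC was -0.23 over all bins and 0.13 over the readable ones. At Tcrb, Igk (readable bins) and Igl, the 3 class differences ran from -0.05 to 0.04.

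In the fit over all bins with sample as a block, bins that reached the ceiling in 1% of cells or more were dropped, which kept 6 locus bins (Tcra 1 to 4, Tcrg 1 and 2). DP minus WBC called 4 of these 6, beside 41.1% of all bins fitted. WBC minus CTC called 4, beside 51.8%, and DP minus CTC called 1, beside 25.3%. In the first 2 comparisons the called bins were Tcra bins 2 and 4 and both Tcrg bins, and in DP minus CTC it was Tcra bin 2. Tcra bin 4 was -0.21 in DP and -0.02 in WBC, a difference of -0.19 ± 0.04 (SE, limma, adjusted p = 0.00962, lower in DP in 5 of 5 samples). Tcrg bin 1 was -0.42 in DP and -0.22 in WBC (-0.19 ± 0.03, limma, adjusted p = 0.00763), and Tcrg bin 2 was -0.08 in DP and 0.10 in WBC (-0.18 ± 0.04, limma, adjusted p = 0.0124). Relative to its flanking bins, Tcrg as a whole was at -0.14 in DP and -0.17 in WBC, a difference of 0.04. With DP cells near 1.8 only, 0 of 6 locus bins and 0% of 2606 bins were called against WBC (244 at an unadjusted p under 0.05). With DP cells near 3.7 only, 0 of 6 and 0% were called against CTC (188 unadjusted).

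Without the cells near 7.8 and 9.6, an alternative added after the values were seen, 15 locus bins could be fitted. DP minus WBC then called 9 of 15, beside 35.8% of all bins, and DP minus CTC called 5, beside 22.1%. WBC minus CTC called 12, beside 49.8%. In the same fit, DP minus WBC was -0.21 to -0.17 in the 6 flanking bins of Tcra, near the -0.19 of Tcra bin 4. With ceiling bins kept, the counts for DP minus WBC, WBC minus CTC and DP minus CTC were 15, 16 and 8 of 21, beside 40.5%, 51.6% and 23.9%. Tcrb bin 1 had a log2 level of 0.07 in WBC and 0.67 in CTC (difference -0.61 ± 0.04, limma, adjusted p = 1.32e-08). Igk bin 4 had -0.13 in WBC and 0.54 in CTC (-0.67 ± 0.04, adjusted p = 7.65e-09). On chromosome 6 as a whole, WBC had -0.0015 and CTC 0.57 against naive WBC. Igl was not called in any of the 3 comparisons.

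Genes of the recombination and receptor machinery were read from the bin over each gene's midpoint. Of 11 genes of V(D)J recombination, 9 could be fitted, and DP minus WBC called 1 higher and 0 lower, with a median of -0.01 (log2) beside -0.05 over all bins, of which 41.1% were called. The called gene was Atm, a kinase that responds to DNA breaks, at 0.08 ± 0.03 (SE, limma, adjusted p = 0.0480, higher in DP in 5 of 5 samples). WBC minus CTC called it lower (-0.11 ± 0.04, adjusted p = 0.0244) and no other gene of the list, with a median of -0.0026 beside 0.09 over all bins, of which 51.8% were called. Without cells near 7.8 and 9.6, where all 11 genes could be fitted, Atm was not called in DP minus WBC (0.09 ± 0.03, limma, adjusted p = 0.0580).

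Of 9 genes of the T cell receptor complex 5 could be fitted, in 3 bins. Of these, Lck, the kinase bound to CD4 and CD8, was the 1 gene called in DP minus WBC and in WBC minus CTC, beside the same 41.1% and 51.8% of all bins. It was lower in DP than in WBC (-0.30 ± 0.04, adjusted p = 0.00763) and higher in WBC than in CTC (0.41 ± 0.04, adjusted p = 6.84e-07). Without cells near 7.8 and 9.6 all 9 could be fitted, and 4 were called higher and 1 lower in DP minus WBC, beside 35.8% of all bins. The 4 were Zap70, a kinase bound to the receptor's zeta chain (0.31 ± 0.07, limma, adjusted p = 0.0150), Cd4 (0.28 ± 0.06, adjusted p = 0.0132) and Cd8a and Cd8b1, which share a bin (0.31 ± 0.06, adjusted p = 0.0115), each higher in DP in 5 of 5 samples. In the same fit WBC minus CTC called 1 higher and 4 lower, the 4 being the same genes (beside 49.8%), and DP minus CTC called 0 higher and 2 lower (beside 22.1%). Cd4, Cd8a and Cd8b1 lie on chromosome 6, whose own level is given above.

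Of 8 B cell genes 5 could be fitted, and DP minus WBC called 1 higher and 1 lower, with a median of -0.06 beside -0.05 over all bins. WBC minus CTC called 2 higher and 1 lower (median 0.09 beside 0.09), and DP minus CTC 2 higher and 0 lower (median 0.04 beside 0.05), against the same shares of all bins. Btk, an X-linked kinase of B cell signalling, was lower in DP than in WBC by a log2 value of -0.95 ± 0.15 (adjusted p = 0.00763) and higher in WBC than in CTC by 1.70 ± 0.04 (adjusted p = 5.96e-13). Chromosome X as a whole had log2 values of -0.60 in DP, 0.04 in WBC and -1.09 in CTC against naive WBC. Cd79b, a chain of the B cell receptor, was higher in DP than in WBC (0.20 ± 0.04, limma, adjusted p = 0.00866) and lower in WBC than in CTC (-0.30 ± 0.04, adjusted p = 1.55e-05, 5 of 5 samples). Ms4a1, which encodes CD20, was higher in WBC than in CTC (0.34 ± 0.04, adjusted p = 6.37e-06). In DP minus CTC, Btk (0.76 ± 0.13, adjusted p = 0.0172) and Ms4a1 (0.19 ± 0.05, adjusted p = 0.0392) were called higher and no gene of the other lists was, beside 25.3% of all bins.

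By likeness over 24 sample-class means, the bins outside each locus's chromosome that tracked the loci best included those over 5430401F13Rik (chromosome 6) for Tcra, with a Pearson r of 0.943, Fstl5 (chromosome 3) for Tcrb, with 0.971, and Gpc6 (chromosome 14) for Igh, with 0.897. The second for each were Reep1 (0.932), Ankrd44 (0.968) and Chrm3 (0.896). For Tcrg they were Atp9b (0.946) and Dsc3 (0.942), for Igk Lrrc1 (0.779) and Krtap4-8 (0.761), and for Igl Rad51ap2 (0.866) and Rps29 (0.787). The Gpc6 bin had a level of 2.66 in WBC and 1.17 in CTC. These means share libraries and tumor copy number.

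Tcra bin 2 was thus near 0 in all 67 WBC, while Igh bin 2 was low in 13 of 67 and to different depths. Coverage in bins of this width gives no breakpoints and no alleles. Whether a given low bin was a rearrangement or an inherited difference between the mice and the line was not tested.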

How the data were processed

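The deposited table holds a normalised coverage signal per bin and single cell, with the scale, the bins and the ceiling of 10 as the authors made them. Per the submitters' processing notes the tools include Trim Galore, BWA, Picard and SAMtools, with mm10; which made this table is not given in the sources used here. Class, tissue and sample came from the deposited cell table. Each cell was divided by its median over chromosomes 1 to 19. Segments were counted from the RefSeq annotation of GRCm38.p6. Class means per sample (at least 3 cells) of log2(level + 0.05) were fitted with limma 3.58.1 in R 4.3.3, with the sample as a block because its classes share 1 sample label, and adjusted by Benjamini-Hochberg at 5%. Contrasts and shares were tested by exact sign-flip permutation tests, adjusted over 18 tests. Calls and fits were tested on simulated data. Python 3.11.15 and numpy 2.4.6 were used. The loci are all named; from each gene list at most 3 genes past the test per comparison are named by adjusted p, and for each locus the most similar bins. The members and lists were chosen with earlier results of these data known. Alternatives covered pseudocounts, flanks, limits, ceiling bins, tissue, cell minimums, single samples left out and the block.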

Additional observations from a re-analysis of the deposited data

Results flagged for a closer look

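Of 21 groups of sample means examined, 2 held a sample far from the others, where chance gives about 1 in 20. In WBC, sample C2R had a mean Tcra bin 2 level of 0.00436 over 13 cells, against 0.00915 to 0.00998 in the other 4 samples with at least 3 WBC. In DP, sample C1L had an Igl contrast with its flanks of 0.399 (log2) over 40 cells, against 0.178 to 0.243 in the other 8 samples.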

How the results depend on the processing

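Coverage in bins of about 538 kb, the ceiling and 5 paired samples limit what can be read, and read depth is unknown. Tcra bin 2 kept its direction in DP minus WBC and in WBC minus CTC under every alternative run, and its call too except with DP cells near 1.8 only (0.06 in DP minus WBC); leaving out 1 sample gave 1.58 to 2.03 and -3.08 to -3.02. The count of locus bins called was 15, 16 and 8 with ceiling bins kept for DP minus WBC, WBC minus CTC and DP minus CTC, and 9, 12 and 5 without cells near 7.8 and 9.6, since more locus bins were then fitted. It was 0 with DP cells near 1.8 only (DP minus WBC), 0 with DP cells near 3.7 only and 0 with blood cells only (DP minus CTC), and 0 to 1 with 1 sample left out (DP minus CTC, 0 without C1N, C1R or C2R). At an unadjusted p under 0.05, limma called 0 locus bins with DP cells near 1.8 only, 0 with DP cells near 3.7 only and 1 with blood cells only. Over all bins, DP minus WBC called 1071 with the settings of the report, 584 with at least 5 cells per class, 1908 with ceiling bins kept, 0 with DP cells near 1.8 only, 863 to 1566 under the other alternatives and 572 to 1103 with 1 sample left out (584 without C1L, 572 without C2R). WBC minus CTC called 1351 with the settings of the report, 2433 with ceiling bins kept, 2178 without cells near 7.8 and 9.6, and 1245 to 1453 otherwise. In DP minus CTC, all bins called were 315 with no replicate block and 659 with it, 1128 with ceiling bins kept, 47 in blood cells only and 0 without C1N, C1R or C2R. Tcrg bin 2 lost its call in DP minus WBC without C1L (-0.16) or C2R (-0.17).

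With no replicate block, exact tests of the same locus contrasts passed 5%, namely 0.62 (Tcra), -0.23 (Igh) and -0.12 (Igk) for DP minus WBC, -1.04 (Tcra), -0.0753 (Tcrg), 0.28 (Igh) and 0.10 (Igk) for WBC minus CTC and -0.42 (Tcra) for DP minus CTC, where 5 pairs cannot; the block changed no call of a locus bin count. The Igh and Igk contrasts just given include bins at the ceiling, which is a lower level in CTC than in WBC. The DP level contrast at Tcrg was 0.0482 to 0.0877 with 1 sample left out and passed without C3R.

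Contrasts that turned sign were as follows; the cause was not tested. With readable bins only, Igh was 0.13 (DP minus WBC), -0.16 (WBC minus CTC) and -0.0375 (DP minus CTC), and Igk -0.0335 (WBC minus CTC). With readable bins and DP cells near 1.8, Igh was 0.0452 and Igl -0.0646 (DP minus WBC). With readable bins and DP cells near 3.7, Tcra was 0.0178, Tcrb 0.00784 and Igl 0.0535 (DP minus CTC). With the median over bins, Igk was 0.0401 (DP minus WBC) and -0.10 (WBC minus CTC), and Igh -0.0462 (DP minus CTC). In blood cells only, Tcrb was 0.00502, Igh -0.0141 and Igl 0.0507 (DP minus CTC). Leaving out 1 sample gave -0.0132 to 0.00987 for Tcrb and -0.0753 to 0.0159 for Igl (DP minus CTC).

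Shares of cells with a low bin turned sign for Tcra with the culture median alone (-52.6 points, DP minus WBC), for Igk in DP minus WBC (-1.68 with the settings of the design, -0.68 with readable bins only) with readable bins and DP cells near 1.8 together (4.805) and on leaving out 1 sample (-3.95 to 3.74; 3.74 without C1L), and for Igk in DP minus CTC (10.4, and 1.19 with readable bins only) with at least 2 neighbouring low bins (-1.09) and with readable bins and DP cells near 3.7 together (-1.03). Single bins that turned sign were Tcra bin 3 with 0.1 added before division (-0.0149), Tcra bin 4 (0.0141) and Tcrg bin 1 (0.0263) with DP cells near 1.8, all in DP minus WBC. In DP minus CTC they were Tcra bin 1 with at least 5 cells per class (-0.0444), without cells near 7.8 and 9.6 (-0.0104) and with 1 sample left out (-0.0444 to 0.0409), Tcrg bin 2 in blood cells (-0.0134), and Tcra bin 4 (-0.0337), Tcrg bin 1 (-0.0466) and Tcrg bin 2 (-0.0527) with DP cells near 3.7. Another 751 values under the alternatives were classed as unchanged. Differences in this class kept direction and side, and counts of locus bins called stayed close to the count with the settings of the report.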
